A study of Mus musculus with 6 samples.

Results

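The genes described here were read in every tumor of both diets and were partly reduced, not lost, in tumors of mice fed the LoGI diet. They numbered 166 of the 60649 human genes in the count table. Each had at least 10 reads in all 6 tumors, a condition that 15805 genes met. In each, the lowest of the 3 HiGI tumors was at least 2 times the highest of the 3 LoGI tumors in CPM, a gene's reads scaled to a library of 1000000 counted reads. The mean LoGI level was also above 5% of the mean HiGI level, which leaves out genes that were nearly absent. These limits use the difference between diets, so that the size and direction of that difference in these genes describe the choice and carry no test.

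The xenografts were grown from LAPC-4, a human prostate cancer cell line with a wild-type androgen receptor, mixed with Matrigel and injected into the right flank of male CB.17 scid/scid mice that were 6 to 8 weeks old when purchased. All mice received the HiGI diet (carbohydrate mainly from sucrose) before and after injection, and were moved to single cages and randomized to HiGI or to LoGI (carbohydrate mainly from Hylon VII, a starch rich in amylose) when tumors averaged 200 mm3. Both are Western diets. RNA was sequenced from 3 HiGI tumors, recorded as samples 16, 20 and 26, and from 3 LoGI tumors, recorded as samples 19, 27 and 28. Each came from its own mouse, and all tumors derive from 1 cell line. Per the paper's methods, mice were killed after a fast once the tumor had reached a set volume, so that time on the diet was not fixed.

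Glycemic index ranks carbohydrates by how fast they raise blood glucose, the main signal for insulin release from the pancreas. Insulin and the insulin-like growth factors act through receptor kinases on growth and survival pathways. In prostate cancer cells, the androgen receptor, a transcription factor activated by androgens, keeps the luminal program running. Scid mice lack B and T cells and keep macrophages, natural killer cells, vessels and fibroblasts of their own, so that a flank tumor holds human cancer cells and mouse host cells. In such bulk tissue, fewer cells of a type and less RNA per cell cannot be told apart.

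The count table gives human Ensembl identifiers without symbols, and human gene names were not used here. The genes are therefore described as a group and by their order, with 2 given by identifier. Their functions, their sequences and the lineage markers of prostate epithelium and host cells were not analysed here.

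The depth behind the values was alike in the 6 tumors, at 18749813 to 21550812 counted reads, and HiGI tumor 26 was the shallowest. The minimum of 10 reads stood for 0.464 to 0.533 CPM. The normalization factors of the trimmed mean of M-values (TMM) lay between 0.964 and 1.03.

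The 166 genes together took a small part of each library. Their share of all counted reads was 0.382% in HiGI tumor 16 (95% Clopper-Pearson interval 0.379% to 0.384%), 0.366% in HiGI tumor 20 (0.364% to 0.369%) and 0.321% in HiGI tumor 26 (0.319% to 0.324%). It was 0.0676% in LoGI tumor 19 (0.0665% to 0.0688%), 0.0641% in LoGI tumor 27 (0.0630% to 0.0651%) and 0.0696% in LoGI tumor 28 (0.0685% to 0.0708%). Without molecular identifiers, these intervals speak for counting error alone. HiGI tumor 26 held the smallest HiGI share, and the LoGI tumors differed little from each other. On average the HiGI tumors gave 0.356% ± 0.0315 (SD, n = 3) of their reads to these genes. The LoGI tumors gave 0.0671% ± 0.00282 (SD, n = 3), so that 18.8% of the HiGI share was left in LoGI tumors. In reads, the sums ran from 60221 to 80382 in HiGI tumors and from 12865 to 13805 in LoGI tumors.

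The median gene showed the same picture as the sum. Its level was 11.6, 11.3 and 8.61 CPM in HiGI tumors 16, 20 and 26 and 2.05, 1.86 and 2.08 CPM in LoGI tumors 19, 27 and 28. By the read minimum, no gene of the set could be at 0 in any tumor. The lowest level of any of them was 0.464 CPM, in LoGI tumor 27, where this is the minimum of 10 reads. The highest was 191 CPM, in HiGI tumor 26.

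**Figure D1:**
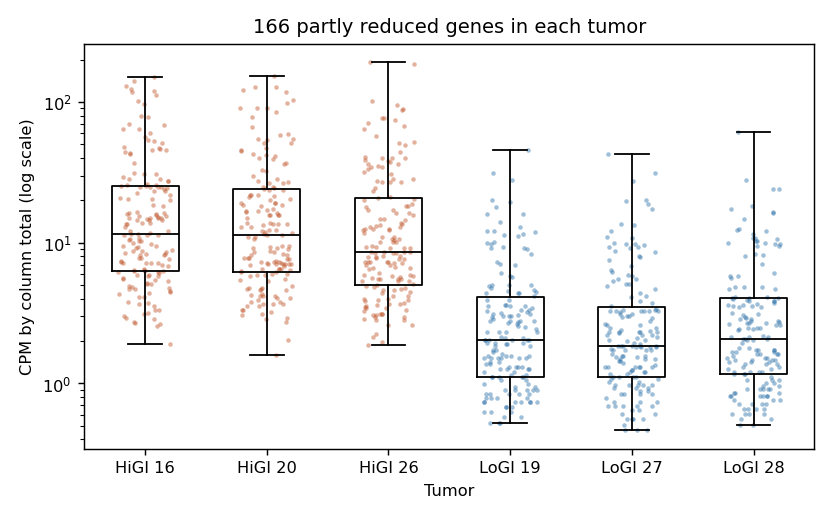
Level of the 166 partly reduced genes in each tumor, in CPM by column total on a log scale. Each point is a gene, boxes give the median and quartiles and whiskers the full range; medians lie between 8.61 and 11.6 CPM in the HiGI tumors and between 1.86 and 2.08 CPM in the LoGI tumors.

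By read level these were mostly modest genes. Their mean level over the 6 tumors had a median of 6.24 CPM and a highest value of 103 CPM. This mean includes LoGI levels that the rule holds low, and in HiGI tumors alone the median was 10.5 CPM. Over all 15805 genes with 10 reads in every tumor the median was 20.01 CPM. CPM is not corrected for transcript length, so that this ordering is one of reads and not of molecules. The 10 genes with the highest mean level held 31.2% of the set's reads in HiGI tumors and 27.03% in LoGI tumors. Among these 10, HiGI values ran from 68.0 to 191 CPM and LoGI values from 5.52 to 60.9 CPM.

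The level left in LoGI tumors formed a broad range and not a single step. The mean LoGI level was between 5.09% and 43.5% of the mean HiGI level, with a median of 20.7% and quartiles of 12.8% and 28.8%. It was 10% or less for 22 genes, over 10% and up to 20% for 58 genes, over 20% and up to 30% for 52 genes, over 30% and up to 40% for 28 genes, and over 40% for 6 genes. As a ratio of mean levels, HiGI over LoGI, the median was 4.84-fold and the range 2.30-fold to 19.6-fold. The label of partial reduction therefore held for all 166 genes by the values that chose them, and 110 of them kept over 10% and up to 30% of their HiGI level.

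**Figure D2:**
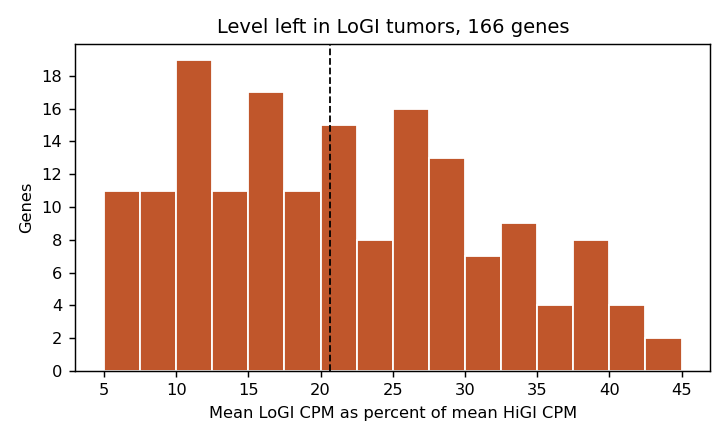
Number of genes (y axis) by mean LoGI CPM as a percent of mean HiGI CPM (x axis), for the 166 genes. The dashed line is the median, 20.7%; values spread from 5.09% to 43.5%, with genes in every bar.

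The read limit shaped this range. Among the 166 genes, 47 had under 20 reads in a LoGI tumor, and 29 had at least 100 reads in all tumors. With 10 reads in each LoGI tumor, a gene can fall to 5% of its HiGI mean only if that mean is 9.97 CPM or more, and 81 of the 166 genes were under this level. When the genes were split in 3 parts by mean HiGI level, the median LoGI percent was 25.1% in the 55 lowest genes (2.23 to 7.03 CPM in HiGI tumors), 19.5% in the 55 middle genes (7.07 to 17.0 CPM) and 14.6% in the 56 highest genes (17.4 to 156 CPM). A LoGI level under 10% was found for 0 of the lowest, 8 of the middle and 14 of the highest genes. The order of these medians thus moved together with a limit of the rule. Over all genes with 10 reads in every HiGI tumor and the same 2-fold separation, 338 genes were above the 5% limit and 194 genes at or under it. Of the 338 genes, 172 failed only on reads in LoGI tumors.

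**Figure D3:**
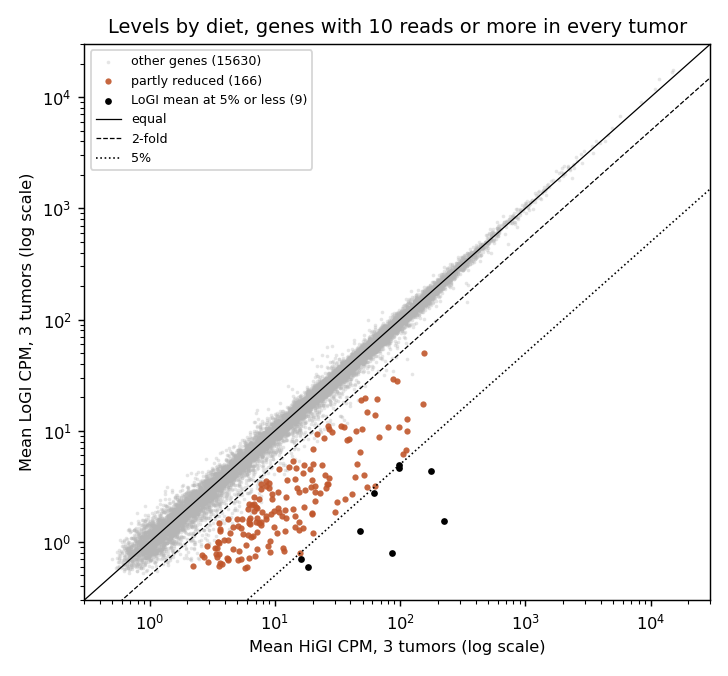
Mean LoGI CPM (y axis) against mean HiGI CPM (x axis), both over 3 tumors and on log scales, for the 15805 genes with at least 10 reads in every tumor. The 166 partly reduced genes fill the band between the 2-fold line and the 5% line, the 9 genes with a LoGI mean at 5% or less lie at or under the lower line, and the other 15630 genes (grey) mostly follow the line of equal levels.

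The 2 genes named by identifier are given in full, chosen by the order of their values. ENSG00000197956.10 had the highest mean level of the set. Its reads numbered 2728, 3039 and 3509 in HiGI tumors 16, 20 and 26, or 130, 152 and 187 CPM. In LoGI tumors 19, 27 and 28 it had 868, 921 and 1203 reads, or 45.6, 42.7 and 60.9 CPM. HiGI tumor 26 was its highest tumor and LoGI tumor 27 its lowest. The HiGI mean was 156 ± 29.0 CPM (SD, n = 3) and the LoGI mean 49.8 ± 9.77 CPM (SD, n = 3), so that 31.8% was left. The log2 fold change of ENSG00000197956.10, LoGI over HiGI, was -1.61 (edgeR; standard error 0.16 from DESeq2).

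ENSG00000142227.11 had the widest separation of the diets relative to its level. The reads were 532, 600 and 650 in HiGI tumors 16, 20 and 26, or 25.3, 30.0 and 34.7 CPM. They were 39, 39 and 33 in LoGI tumors 19, 27 and 28, or 2.05, 1.81 and 1.67 CPM. Its lowest HiGI tumor was 12.3 times its highest LoGI tumor. The HiGI mean of ENSG00000142227.11 was 30.0 ± 4.70 CPM (SD, n = 3) and its LoGI mean 1.84 ± 0.192 CPM (SD, n = 3), which left 6.15%, and its log2 fold change was -3.98 (edgeR; standard error 0.21 from DESeq2). Both genes were highest in HiGI tumor 26, unlike most of the set.

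The separation of the diets, taken as the lowest HiGI over the highest LoGI level, had a median of 3.22 and was at most 12.3. It was under 2.5 for 48 genes, at least 4 for 56 genes and at least 8 for 11 genes. The 10 genes with the widest separation, from 8.34 to 12.3, had mean HiGI levels between 15.7 and 110 CPM and kept 5.09% to 8.80% of them in LoGI tumors. Of these 10 genes, 2 were also among the 10 with the highest mean level.

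Genes on either side of the 2-fold limit were much alike. The 3 genes just inside it had ratios of 2.008, 2.011 and 2.016 and kept 38.6%, 34.0% and 41.7% of their HiGI level. The 3 genes just outside it had ratios of 1.996, 1.973 and 1.967 and kept 41.7%, 20.1% and 37.2%. The second of the outer genes missed the limit through a single tumor, with 18.1, 12.1 and 6.13 CPM in HiGI tumors 16, 20 and 26 against 2.31, 3.11 and 1.87 CPM in LoGI tumors 19, 27 and 28.

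At the lower limit, the 3 genes just inside kept 5.09%, 5.12% and 5.74% of their HiGI level, and the 3 genes just outside kept 4.98%, 4.71% and 4.45%. The 9 genes outside this limit with 10 reads in every tumor kept 0.681% to 4.98%. No gap in the values separated them from the 166 genes, and the 5% limit is a line drawn through a continuous range.

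In the other direction the same limits found nothing. Of the 15805 genes, 0 had a lowest LoGI level at least 2 times the highest HiGI level, while 175 genes (1.11%) had the reverse, the 166 and the 9. At a limit of 1.5-fold the numbers were 4 genes higher and 301 genes lower in LoGI tumors. With any separation of the diets, 2066 genes (13.1%) had every HiGI tumor above every LoGI tumor, and 944 genes (5.97%) the opposite. In edgeR's quasi-likelihood test across 24545 genes, with an adjusted p limit of 0.05 and a minimum change of 1 on the log2 scale, 829 genes (3.38%) were lower in LoGI tumors and 18 genes (0.0733%) were higher. All 166 genes were among those called lower, which follows from how they were chosen. Their log2 fold changes ran from -4.26 to -1.16 with a median of -2.23, against a median of 0.0034 over all tested genes.

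The choice was also repeated with a pair of tumors left out, although the rule for the 166 genes had used every tumor. For each of the 9 pairs of a HiGI and a LoGI tumor, the same limits were applied to the other 4 tumors alone, and the genes so chosen were then read in the pair left out. Between 189 and 263 genes were chosen, among them 161 to 166 of the 166. Those of the 166 are at least 2-fold apart in every pair by the rule, which raises the shares that follow. The shares, and their distance from those of all genes, are therefore no independent check of the 166 genes. In the pair left out, 75.7% to 94.4% of the chosen genes were again at least 2-fold higher in the HiGI tumor, with a median of 89.4%. Among all genes with 10 reads in the same 4 tumors this held for 2.94% to 4.34%. The chosen genes were higher in the HiGI tumor, by any amount, in 97.3% to 100% of cases. Each tumor stands in 3 of the 9 pairs, so that the pairs are not independent and no test was made over them.

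The pairs differed by their HiGI tumor. With HiGI tumor 16 left out, 91.4%, 93.7% and 92.4% of the chosen genes were at least 2-fold higher in it than in LoGI tumors 19, 27 and 28 (all genes 3.56%, 4.05% and 4.34%), and the median ratios were 4.66-, 5.10- and 4.49-fold. With HiGI tumor 20 left out the shares were 88.6%, 94.4% and 89.4% (all genes 3.08%, 3.5% and 3.19%), with median ratios of 4.36-, 4.47- and 4.36-fold. With HiGI tumor 26 left out they were 77.2%, 81.1% and 75.7% (all genes 2.94%, 3.46% and 3.12%), with median ratios of 3.10-, 3.27- and 3.13-fold. In the tumors that chose the genes the median ratio was 3.98- to 4.31-fold throughout. The median ratio was thus smallest where HiGI tumor 26 was the tumor left out. There 263, 238 and 259 genes were chosen with LoGI tumors 19, 27 and 28 left out, against 189 to 221 in the other pairs. The pairs therefore do not compare the same genes.

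**Figure D4:**
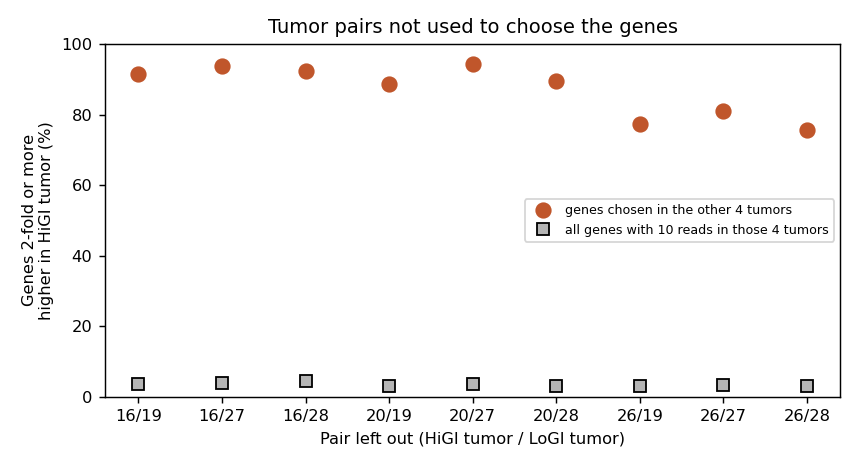
Percent of genes at least 2-fold higher in the HiGI than in the LoGI tumor (y axis) in each of the 9 pairs left out (x axis, HiGI tumor / LoGI tumor). Circles are genes chosen in the other 4 tumors, at 75.7% to 94.4%. Squares are all genes with 10 reads in those 4 tumors, at 2.94% to 4.34%. The 3 pairs with HiGI tumor 26 have the lowest circles. Most chosen genes are among the 166, which are at least 2-fold apart in every pair by the rule, and this raises the circles.

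HiGI tumor 26 was most often the lowest within the set, a count over the same values as the pairs above. It was the lowest HiGI tumor for 104 of the 166 genes (62.7%), against 34.5% of the 15630 other genes with 10 reads in every tumor. HiGI tumor 16 was the highest for 87 genes (52.4%), HiGI tumor 20 for 49 genes (29.5%) and HiGI tumor 26 for 30 genes (18.1%). For the other genes these shares were 43.4%, 28.8% and 27.8%. After TMM normalization, tumor 26 was lowest for 60.2% of the 166 genes and 30.9% of the other genes, and tumor 16 highest for 47.0% and 36.6%. Relative to the mean of the HiGI tumors, the median gene of the set was 0.12 higher in tumor 16, 0.04 higher in tumor 20 and -0.16 in tumor 26 on the log2 scale. The medians of the other genes lay within 0.032 of 0 in the HiGI tumors.

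In LoGI tumors, tumor 28 was highest for 69 genes (41.6%), tumor 19 for 57 genes (34.3%) and tumor 27 for 40 genes (24.1%). The shares of the other genes were 32.1%, 34.4% and 33.5% in the same order. LoGI tumor 27 was lowest for 43.4% of the 166 genes and 29.7% of the other genes. The median deviations from the LoGI mean were 0.03, -0.04 and 0.04 on the log2 scale in LoGI tumors 19, 27 and 28.

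**Figure D5:**
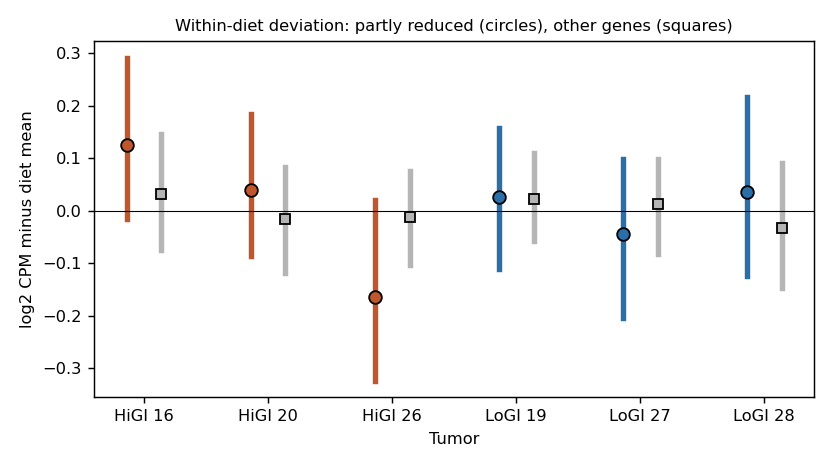
Deviation of log2 CPM from the mean of the tumors on the same diet (y axis) in each tumor (x axis). Circles are medians over the 166 genes, squares are medians over the 15630 other genes with 10 reads in every tumor, and bars give the quartiles; the circles step from 0.12 in HiGI tumor 16 to -0.16 in HiGI tumor 26 and stay within 0.045 of 0 in the LoGI tumors.

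The median spread between HiGI tumors was wider in these genes than in other genes, with the smallest gap at low levels. The highest HiGI tumor was a median of 1.42 times the lowest, and 1.22 times in the 15630 other genes. Among genes with 5 to 20 CPM in HiGI tumors this ratio was 1.46 in 87 members and 1.26 in 3473 other genes. Among those with 20 to 200 CPM it was 1.38 in 50 members and 1.16 in 7084 other genes. From 2 to 5 CPM, where counting error is larger, it was 1.43 in 29 members and 1.40 in 1989 other genes. There a chi-square statistic over the 3 tumors, divided by its degrees of freedom and near 1 if counting error alone set the differences, had a median of 2.31 in members and 1.87 in the other genes. A difference of at least 2-fold between HiGI tumors was found for 23 of the 166 genes (13.9%) and for 4.59% of the 15630 other genes. These are descriptions over genes, which are not replicates, and no test was made.

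Between LoGI tumors, the highest was a median of 1.38 times the lowest in the 166 genes and 1.21 times in the other genes, which had higher LoGI levels. At a LoGI level under 5 CPM, where 134 of the 166 genes lay, the ratio was 1.44 in these genes and 1.43 in 4397 other genes. The same chi-square statistic had a median of 1.16 in the 134 genes and 1.30 in the other genes. From 2 to 5 CPM alone the ratio was 1.38 in 49 members and 1.35 in 2006 other genes, and the statistic 2.01 and 1.56. From 5 to 20 CPM the ratio was 1.28 in 29 members and 1.23 in 3440 other genes. A difference of 2-fold or more between LoGI tumors was found for 11 members (6.63%), all of them under 5 CPM, and for 3.05% of the other genes. Among genes under 5 CPM the shares were 8.21% and 10.4%. The rule ties the lowest HiGI to the highest LoGI level in members and not in the other genes. Its part in the spreads within either diet was not tested.

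Members ranged from even to very uneven across HiGI tumors. The most uneven one had 36.7, 19.1 and 6.67 CPM in HiGI tumors 16, 20 and 26, a 5.50-fold range, and 2.79, 2.23 and 2.03 CPM in LoGI tumors 19, 27 and 28. The next had 14.9, 39.3 and 7.95 CPM in HiGI tumors 16, 20 and 26 and 3.31, 3.02 and 2.13 CPM in LoGI tumors 19, 27 and 28. HiGI tumor 26 was the lowest in both, and in all 5 of the most uneven members. At the other end, one member had 64.1, 66.6 and 64.3 CPM in HiGI tumors 16, 20 and 26 against 19.4, 19.7 and 18.2 CPM in LoGI tumors 19, 27 and 28, with 29.4% left. The 5 most even members differed by 1.01- to 1.05-fold among HiGI tumors and kept 12.4% to 36.1% in LoGI tumors. The 5 most uneven differed by 3.16- to 5.50-fold and kept 7.16% to 13.6%. The rule sets this order in part. Every LoGI tumor must lie at least 2-fold under the lowest HiGI tumor, while uneven higher HiGI tumors raise the HiGI mean.

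The 9 nearly absent genes with 10 reads in every tumor are the closest group to compare. Their share of reads was 0.106%, 0.0801% and 0.0621% in HiGI tumors 16, 20 and 26 and 0.00198%, 0.00224% and 0.00225% in LoGI tumors 19, 27 and 28. HiGI tumor 26 was the lowest HiGI tumor for 7 of these 9 genes and HiGI tumor 16 the highest for 7. Their highest HiGI tumor was a median of 1.69 times the lowest, against 1.42 in the 166 genes. With 9 genes, and both groups cut from one range of values, this difference was not tested.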

How the data were processed

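RNA from 6 LAPC-4 tumors was sequenced as stranded single-end reads. Per the study's methods, the authors used BBMap to sort reads by species (human GRCh38.p13, mouse GRCm38.p6) and discarded reads that mapped only to mouse. STAR and RSEM then aligned and quantified what remained on human genes. Reads that map to both genomes were thus kept, and their part in the level left in LoGI tumors was not tested. The deposited values are whole-number counts per human Ensembl gene, not normalized. How RSEM estimates became whole is not given in the sources used here. Every column was matched to a tumor by its name.

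CPM was computed from column totals (pandas 2.3.3) and the rule applied to it. The diets were compared over genes whose reads in the 6 tumors summed to 10 or more, by edgeR 4.0.16 (TMM, quasi-likelihood F-test, Benjamini-Hochberg adjustment, R 4.3.3), with standard errors from DESeq2 1.42.0. The fit and the rule were tested on simulated data. The alternatives were other scalings, read minimums, fold limits and 5% limits, other tools and filters, and leaving out each tumor. The 9 pairs left out and a read minimum in HiGI tumors only were added after seeing the data.

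The members, lists and tests were chosen with earlier results of these data known. Genes were to be named from fixed lists of symbols and by order of their values. Human symbols were not used here, so that the lists gave no result, and the first gene by mean CPM and the first by separation are given by identifier. The sample records name the organism as mouse, and the counts were read as human. Separate mice stand behind the tumors, with 3 per diet. Reads shared between similar genes were not tested.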

Additional observations from a re-analysis of the deposited data

How the results depend on the processing

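The number of partly reduced genes (166) stayed within 1.5 times under TMM (154 genes, 153 of them among the 166), DESeq2 size factors (152), 5 or 20 reads per tumor (215 and 119), and a LoGI limit of 2% or 10% (173 and 144). It moved further with a 1.5-fold limit (292), a 3-fold limit (93), and the read minimum in HiGI tumors only (338), each of which widens or narrows the rule itself. Over the 6 selections that each dropped a tumor, and with it a condition of the rule, it lay between 174 and 220, the largest number without HiGI tumor 26. The median share of genes at least 2-fold apart in the pair left out was 89.4%, 87.5% under TMM, 86.8% under DESeq2 size factors, 65.0% with the 1.5-fold limit and 98.3% with the 3-fold limit. The 166 genes are at least 2-fold apart in every pair by the rule, which raises this share. At 1.5-fold and 3-fold the share moved with the limit that chose the genes. The count of genes lower in LoGI tumors (829) fell to 300 with 10 reads in every tumor. That of genes higher (18) was 39 with 1 read summed, 10 with 10 reads in every tumor and 90 with no minimum fold change, and lay between 4 and 26 when each tumor was dropped in turn, with 4 without LoGI tumor 19 and 7 without HiGI tumor 20. The log2 fold changes of the 2 genes given by identifier kept their direction with DESeq2 size factors and in the 6 fits that each dropped a tumor, and moved by less than their spread between tumors. No paired analysis was possible because the sample records give each tumor a number of its own. At this depth, genes with fewer than 10 reads in a LoGI tumor (0.464 to 0.526 CPM) fell outside the rule.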
